A study of Mus musculus with 12 samples.

Results

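The genes described here are the mouse Zfp genes, the numbered zinc finger protein genes, in B cells that had lost CTCF. They were chosen by symbol and by mean level, not by any difference between genotypes, although with earlier results of these data known: protein-coding genes called Zfp followed by a number, without Zfp365, whose mean level over 12 RNA-seq libraries was at least 5 CPM (read counts normalized for library size). Of 321 Zfp genes among the 12699 genes of the table, 237 met this rule. The genes nearest to the limit were Zfp971 at 5.02, Zfp189 at 5.09 and Zfp935 at 5.10 CPM inside it, and Zfp955a at 4.86, Zfp945 at 4.74 and Zfp560 at 4.70 CPM outside it, and Zfp365 lay at 3.85 CPM. The libraries were of splenic B cells sorted for the hCD2 reporter after 48 h of culture, either of CTCFfl/fl; AID-CRETG/+ mice (CTCFfl/fl) or of CTCFfl/+; AID-CRETG/+ mice (CTCFfl/+), all of them 8 to 12 weeks old. The controls thus carry 1 floxed allele and the same Cre transgene, whose expression follows that of AID. Cells were either co-cultured with T cells, 5 µg/ml anti-CD3 and 1 µg/ml anti-CD28 (CD3/CD28) or cultured with 50 µg/ml LPS and 5 ng/ml IL4 (LPS/IL4), doses as the sample records give them. Each genotype had 3 libraries per culture, each from a pool of 2 to 3 mice, and the cultures were separate batches.

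Zinc finger proteins of the C2H2 kind hold a zinc ion in a small fold that reads DNA bases, and a row of such fingers gives a protein its target sequence. Many of them in mammals also carry a KRAB box, a short domain that binds the corepressor Trim28 and brings histone methylation and silencing to retroelements and other targets. KRAB zinc finger genes arose by repeated duplication and lie in clusters on the chromosomes, while zinc finger genes without a KRAB box include long-conserved promoter factors and, in the Zfp36 family, RNA-binding proteins. CTCF, which folds chromatin into loops together with cohesin, is itself a zinc finger protein.

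Ctcf mRNA, the check of the deletion, was lower in the CTCFfl/fl libraries of both cultures. It lay at 126 to 138 CPM in CTCFfl/+ and 72.0 to 76.3 CPM in CTCFfl/fl cells of the CD3/CD28 co-cultures, and at 134 to 146 and 63.1 to 78.3 CPM in the LPS/IL4 cultures. The reads recovered per library numbered 6934344 to 11227004 in CD3/CD28 and 23469188 to 28130440 in LPS/IL4. They come from the deposited values, in which culture means had been brought close, and may differ from the reads first counted. The B-cell receptor genes Cd79a and Cd79b were present in every library, at 701 to 1043 and 512 to 692 CPM. In CD3/CD28 both were higher in CTCFfl/fl than in CTCFfl/+ libraries (log2 fold change 0.35 and 0.24). Markers of other cell types also moved with the genotype in CD3/CD28. Of 7 T-cell markers, summing to 130 to 145 CPM in CTCFfl/+ and 122 to 146 CPM in CTCFfl/fl libraries, Cd3d, Cd3e and Cd4 lay at 0.178 CPM or less, Lck at 83.6 to 122 CPM, Thy1 was lower (log2 fold change -1.30) and Cd3g higher (1.11). Of 5 plasma cell markers, summing to 399.9 to 425 and 358 to 429.8 CPM, Prdm1 (1.27) and Sdc1 (0.81) were higher. The other 3 were not called, and 2 of the 5 had a negative estimate, Xbp1 among them (-0.22). The myeloid markers, the 3 of 6 with a value (Itgam, Adgre1 and Tyrobp), summed to 4.96 to 11.3 CPM in CTCFfl/+ and 21.3 to 28.5 CPM in CTCFfl/fl libraries, with Itgam (1.81) and Tyrobp (1.57) higher. The part of these cells in the results below was not tested. In bulk libraries, fewer cells of a type and less RNA per cell cannot be told apart.

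The 237 Zfp genes differed in structure and in level. Their means over the 12 libraries ran from 5.02 to 371 CPM, with a median of 16.8 CPM. The median was 40.0 CPM over all genes with a mean of 5 CPM or more, and 26.0 CPM over all genes of the table. In the longest complete coding transcript of each gene, translated from GENCODE M21, the number of C2H2 fingers had a median of 10 and ran from 0 to 36. A KRAB-A box was found in 115 of the proteins and not in 122. The KRAB genes had fewer reads per gene, with a median of 11.1 CPM against 26.5 CPM, on a scale not corrected for transcript length. Chromosome 7 held 56 of the genes, 25 of them with a KRAB-A box. Chromosome 17 held 29, chromosome 13 held 22 and chromosome 8 held 17.

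In CD3/CD28 co-cultures, 24 of the 237 Zfp genes changed with the loss of CTCF, 11 of them higher and 13 lower in CTCFfl/fl than in CTCFfl/+ cells. A gene was called changed at an adjusted p under 0.05 from limma over 12070 genes, on the log2(CPM + 0.5) scale, which understates the change of low genes. The Zfp genes called were 10.1% of the 237, whereas 18.6% of all genes tested were called, 9.88% higher and 8.76% lower, and 21.2% of those whose mean reached 5 CPM. At an unadjusted p under 0.05 lay 56 of the 237, against 33.9% of all genes tested. Among the other 9193 protein-coding genes at that level, 21.9% were called. Zfp280b was alone among the 237 in changing by more than 1 on the log2 scale, and 228 genes had an estimate within 0.5 of 0. The median log2 fold change of the Zfp genes was -0.02, against 0.01 over all genes tested, and the 10th and 90th percentiles were -0.30 and 0.29. The groups of 3 libraries did not overlap for 57 of the 237 genes (24.1%, against 39.6% of all genes tested).

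**Figure D1:**
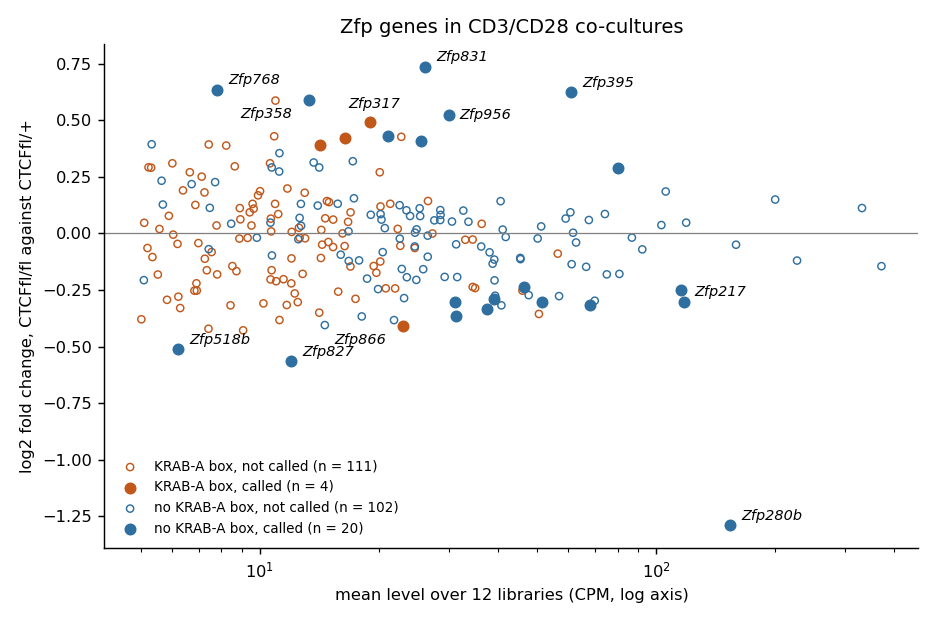
Log2 fold change of 237 Zfp genes in CD3/CD28 co-cultures (CTCFfl/fl against CTCFfl/+, y axis) by their mean level over 12 libraries (CPM, log axis). Filled points are the 24 genes called by limma, orange those with a KRAB-A box, and Zfp280b at -1.29 lies far below the others, and most called genes have no KRAB-A box.

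The number of calls depended on the libraries. Of the 24, 5 (Zfp280b, Zfp395, Zfp831, Zfp358 and Zfp768) stayed past the threshold when any 1 of the 6 libraries was left out, and 3 (Zfp280b, Zfp395 and Zfp358) did so under every alternative run as well. Leaving out CTCFfl/+ replicate 1, 2 or 3 gave 6 higher and 3 lower, 7 and 4, and 5 and 2 calls. Leaving out CTCFfl/fl replicate 1 or 3 gave 6 higher and 6 lower, and 12 and 10. Without CTCFfl/fl replicate 2 the balance moved to 4 higher and 22 lower, and in that library the median deviation of the KRAB genes was the highest of the culture. The fits with 5 libraries also have fewer samples to estimate the spread.

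Zfp280b, on chromosome 10 from 76032650 to 76043234 (GRCm38), fell the most. It belongs to a small family of zinc finger genes with Zfp280c and Zfp280d and has 5 C2H2 fingers and no KRAB-A box. In CD3/CD28 it stood at 231, 224 and 219.96 CPM in the CTCFfl/+ libraries and at 86.5, 88.8 and 100.3 CPM in the CTCFfl/fl libraries. The groups were far apart, with the CTCFfl/fl mean at 40.8% of the CTCFfl/+ mean. The means were 225 ± 5.71 and 91.9 ± 7.38 CPM (SD, n = 3 libraries), a log2 fold change of -1.29 (SE 0.07, adjusted p = 6.48e-06 from limma). Over all alternatives its adjusted p stayed at or under 0.0045.

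Zfp280b did not fall in LPS/IL4. The CTCFfl/+ libraries of that culture held 145, 129 and 108 CPM and the CTCFfl/fl libraries 163, 137 and 216 CPM. The groups overlapped, and the log2 fold change was 0.42 (adjusted p = 0.51 from limma over 11962 genes), with a 95% confidence interval of 0.12 to 0.72. Its log2 fold change in CD3/CD28 minus that in LPS/IL4 was -1.71 (SE 0.19, adjusted p = 0.00049 for this interaction in limma over 11847 genes). Levels are compared here only within a culture, because the means of the cultures were brought close to each other in the deposited values.

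The other members of this family moved less in CD3/CD28. Zfp280c, whose human relative is known to restrain the trimming of broken DNA ends, lay at 37.0, 33.7 and 35.2 CPM in CTCFfl/+ and at 26.1, 27.5 and 28.2 CPM in CTCFfl/fl cells. It fell without overlap of the groups, with a log2 fold change of -0.37 (SE 0.09, adjusted p = 0.016 from limma), and lost the call without CTCFfl/+ replicate 1 or 3 (adjusted p = 0.070 and 0.064). Zfp280d lay at 39.1, 36.3 and 41.1 against 31.7, 41.5 and 37.2 CPM, with overlapping groups and a log2 fold change of -0.08 (95% confidence interval -0.32 to 0.15).

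The fall of Zfp280b was not shared by the genes beside it. Within 500 kb on either side, 18 other genes were tested, with a median log2 fold change of 0.05, and 3 of them were called, all higher in CTCFfl/fl cells, against 18.6% called among all genes tested. These were Derl3, a component of the degradation of proteins from the endoplasmic reticulum (0.83), and the glutathione transferase genes Gstt1 (0.80) and Gstt2 (0.40). Gstt1 lost its call without CTCFfl/+ replicate 1 (adjusted p = 0.056 from limma). The nearest gene tested, Gm5134, had a log2 fold change of -0.29 and was not called.

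The promoters of Zfp280b, the largest fall, and of Zfp956, the called gene with a match to the CTCF motif, are shown because the interaction between genotype and culture was also called for both. The RefSeq windows (GRCm38.p6) run from 250 bases before to 50 after the start site. The first lies at chr10:76032362-76032661 and the second at chr6:47953140-47953439, both on the plus strand, and capitals mark the CCAAT boxes in Zfp280b and the CTCF core motif, here read on the opposite strand, in Zfp956.
Zfp280b: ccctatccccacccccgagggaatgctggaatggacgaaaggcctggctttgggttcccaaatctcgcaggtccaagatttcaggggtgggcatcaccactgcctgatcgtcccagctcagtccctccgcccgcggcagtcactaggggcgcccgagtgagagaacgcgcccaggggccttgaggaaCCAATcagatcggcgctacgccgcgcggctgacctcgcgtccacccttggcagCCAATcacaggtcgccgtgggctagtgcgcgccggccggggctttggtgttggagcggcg
Zfp956: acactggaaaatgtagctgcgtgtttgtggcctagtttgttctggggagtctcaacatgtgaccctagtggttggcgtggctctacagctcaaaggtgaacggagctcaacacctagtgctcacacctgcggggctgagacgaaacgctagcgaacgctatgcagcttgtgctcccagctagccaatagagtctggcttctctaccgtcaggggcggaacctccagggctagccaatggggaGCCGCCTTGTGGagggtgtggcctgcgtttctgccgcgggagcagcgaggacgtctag

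Such motifs were counted on both strands in 243 windows of 197 of the Zfp genes that had one. The CTCF core, searched as the letters CCANNAG followed by NNGGC, where N is any base, was in 3 windows (of Zfp638, Zfp661 and Zfp956), 1.24% of them, against 2.43% of all 32851 windows. The letters ACTACAA, found in binding sites of the protein made by Zfp143, were in 5.35% of the Zfp windows and 3.24% of all windows. The CCAAT box, a common promoter element, was in 48.2% against 37.4%, and in 57.5% of the 113 windows of KRAB genes. It was in 30.4% of the 23 windows of genes called in CD3/CD28. Zfp956 was among these, and its CCAAT boxes are not in capitals above. A match of letters is a description and not a bound site.

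A list of chromatin and DNA-binding factors held some of the other genes that fell in CD3/CD28. Of its 32 genes, 28 were among the Zfp genes studied, and 2 of them were higher and 7 lower, Zfp280b and Zfp280c included, with a median log2 fold change of -0.08. These are 32.1% of the 28, against 21.2% of all genes tested with a mean of 5 CPM or more, and the list was chosen with results known. Zfp827, whose human relative brings a nucleosome remodelling complex to telomeres, stood at 14.1, 15.4 and 13.2 CPM in CTCFfl/+ and 8.89, 8.64 and 10.9 CPM in CTCFfl/fl cells. It fell by 0.57 on the log2 scale (SE 0.13, adjusted p = 0.016 from limma), and the call was lost without CTCFfl/+ replicate 1 or 2 (adjusted p = 0.054 and 0.067). Zfp518b stood at 8.04, 7.09 and 7.11 against 5.34, 4.62 and 5.19 CPM. Its log2 fold change was -0.51 (SE 0.16, adjusted p = 0.045), and it lost the call without any 1 of the 6 libraries (adjusted p = 0.063 to 0.15).

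Zfp217 encodes a partner of the CoREST and CtBP corepressors and is a known oncogene in human breast cancer. It lay at 129, 128 and 131 CPM in CTCFfl/+ and 98.1, 107 and 109 CPM in CTCFfl/fl cells of CD3/CD28. The CTCFfl/+ libraries were close together and all above the others, with a log2 fold change of -0.30 (SE 0.07, adjusted p = 0.011 from limma), and without CTCFfl/+ replicate 3 the adjusted p was 0.058. Zfp91, a ubiquitin ligase of the non-canonical NF-kB pathway, lay at 125 CPM in each of the 3 CTCFfl/+ libraries and at 105, 98.3 and 113 CPM in CTCFfl/fl cells. It fell by 0.25 (SE 0.07, adjusted p = 0.0295) and lost the call without any library but CTCFfl/fl replicate 3 (adjusted p = 0.053 to 0.11). Its reads may include those of Cntf, which overlaps it. Zfp609, which binds the cohesin loader Nipbl and the Integrator complex, lay at 42.6, 40.0 and 44.05 against 29.3, 34.6 and 36.6 CPM (log2 fold change -0.34, SE 0.10, adjusted p = 0.038). It lost the call without any CTCFfl/+ replicate or without CTCFfl/fl replicate 1 (adjusted p = 0.066 to 0.14).

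Falls of similar size were found in zinc finger genes of other kinds. Zfp866 was the KRAB gene that fell, at 23.1, 28.2 and 27.5 CPM in CTCFfl/+ and 19.9, 20.7 and 18.2 CPM in CTCFfl/fl cells (log2 fold change -0.41, SE 0.11, adjusted p = 0.026 from limma). Its span overlaps that of Atp13a1, and the library kit does not mark strand, so that reads from any shared sequence may not be told apart. Zfp62, with 25 fingers, stood at 81.8, 72.2 and 71.9 against 55.8, 61.3 and 64.0 CPM (-0.32, SE 0.08, adjusted p = 0.024). Zfp131, which pairs its fingers with a BTB domain for contacts between proteins, stood at 59.9, 53.3 and 57.5 against 44.5, 44.4 and 49.0 CPM (-0.30, SE 0.08, adjusted p = 0.026). In these genes each CTCFfl/fl library lay below each CTCFfl/+ library.

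Zfp574, with 18 fingers, stood at 33.3, 35.5 and 34.5 CPM in CTCFfl/+ and 30.2, 26.2 and 27.1 CPM in CTCFfl/fl cells (-0.30, SE 0.09, adjusted p = 0.039 from limma). Zfp146, a protein made of little else than its 10 fingers, stood at 44.7, 42.6 and 41.6 against 35.7, 32.4 and 37.3 CPM (-0.29, SE 0.08, adjusted p = 0.038). The last of the 13 falls, that of Zfp142, named here after its values were seen, had a log2 fold change of -0.24. The span of Zfp142 overlaps that of Plcd4. Zfp866 lost its call without CTCFfl/+ replicate 2 or 3 or CTCFfl/fl replicate 3 (adjusted p = 0.063 to 0.11), and Zfp131 without CTCFfl/+ replicate 1 or 3 or CTCFfl/fl replicate 1 (0.066 to 0.11). Zfp62 lost it without any CTCFfl/+ replicate or CTCFfl/fl replicate 1 (0.051 to 0.11). Zfp574 lost it without any library but CTCFfl/fl replicate 1 (0.075 to 0.12), and Zfp146 without any but CTCFfl/fl replicate 3 (0.066 to 0.13). Zfp142 lost it in 5 of 6 fits (0.065 to 0.14).

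Of the 11 Zfp genes that rose in CD3/CD28, Zfp831 rose the most. It has 2 C2H2 fingers and lay at 19.8, 21.4 and 16.8 CPM in CTCFfl/+ and 28.8, 41.6 and 28.3 CPM in CTCFfl/fl cells. CTCFfl/fl replicate 2 was the highest of its group, and all 3 were above the CTCFfl/+ libraries (log2 fold change 0.74, SE 0.15, adjusted p = 0.0090 from limma). Zfp768, with 10 fingers, lay at 6.32, 5.43 and 6.17 against 9.69, 9.49 and 9.44 CPM (0.64, SE 0.14, adjusted p = 0.012). Zfp395, a factor known to respond to hypoxia and to bind the huntingtin promoter, lay at 51.0, 43.6 and 48.4 against 77.4, 78.2 and 65.6 CPM. Its log2 fold change was 0.62 (SE 0.09, adjusted p = 0.0020), and its adjusted p stayed at or under 0.028 in all alternatives. Zfp358 lay at 10.2, 11.5 and 9.73 against 17.4, 16.1 and 14.5 CPM (0.59, SE 0.13, adjusted p = 0.010).

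Zfp956 stood at 28.4, 19.96 and 25.8 CPM in CTCFfl/+ and at 36.8, 39.1 and 30.7 CPM in CTCFfl/fl cells (0.52, SE 0.14, adjusted p = 0.025 from limma). Its span overlaps that of Zfp783, and reads from any shared sequence may not be told apart. The KRAB gene Zfp317 stood at 13.4, 16.4 and 16.9 against 21.3, 24.7 and 20.1 CPM (0.49, SE 0.13, adjusted p = 0.023). Zfp516, a transcription factor of brown fat, stood at 15.5, 20.9 and 16.9 against 25.0, 26.4 and 20.9 CPM (0.43, SE 0.13, adjusted p = 0.047). It was the 1 called gene whose groups touched, since CTCFfl/+ replicate 2 and CTCFfl/fl replicate 3 lay at nearly the same level. Zfp956 lost its call without CTCFfl/+ replicate 2 or 3 or CTCFfl/fl replicate 1 or 2 (adjusted p = 0.061 to 0.083), Zfp317 without CTCFfl/+ replicate 1 or CTCFfl/fl replicate 2 (0.088 and 0.062), and Zfp516 without CTCFfl/+ replicate 1 or 3 or CTCFfl/fl replicate 1 or 2 (0.11 to 0.16).

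The KRAB genes Zfp688 and Zfp386 rose as well. Zfp688 stood at 13.5, 12.9 and 15.1 CPM in CTCFfl/+ and 19.8, 20.3 and 16.05 CPM in CTCFfl/fl cells (0.42, SE 0.13, adjusted p = 0.041 from limma). Zfp386 stood at 12.1, 13.1 and 11.1 against 15.7, 17.6 and 14.7 CPM (0.39, SE 0.12, adjusted p = 0.048). Both lost the call without any library but CTCFfl/fl replicate 3 (0.069 to 0.13 and 0.068 to 0.17). Zfp512 stood at 19.8, 22.9 and 22.8 against 26.5, 31.8 and 29.4 CPM (0.41, SE 0.11, adjusted p = 0.023) and lost the call without CTCFfl/+ replicate 1 or 3 or CTCFfl/fl replicate 2 (0.055 to 0.090).

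Zfp318 is needed for the expression of IgD on mature B cells, where it acts on the long transcript that holds the Ighm and Ighd exons. It lay at 69.6, 71.6 and 74.0 CPM in CTCFfl/+ and at 95.2, 91.2 and 78.0 CPM in CTCFfl/fl cells of CD3/CD28. The groups did not overlap, and the log2 fold change was 0.29 (SE 0.08, adjusted p = 0.035 from limma), the smallest rise among the called genes. The call was lost without any library but CTCFfl/fl replicate 3 (adjusted p = 0.071 to 0.12). In LPS/IL4 its values were 92.4, 82.9 and 77.1 against 64.3, 80.7 and 87.4 CPM, with overlapping groups and a log2 fold change of -0.13 (95% confidence interval -0.37 to 0.12).

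**Figure D2:**
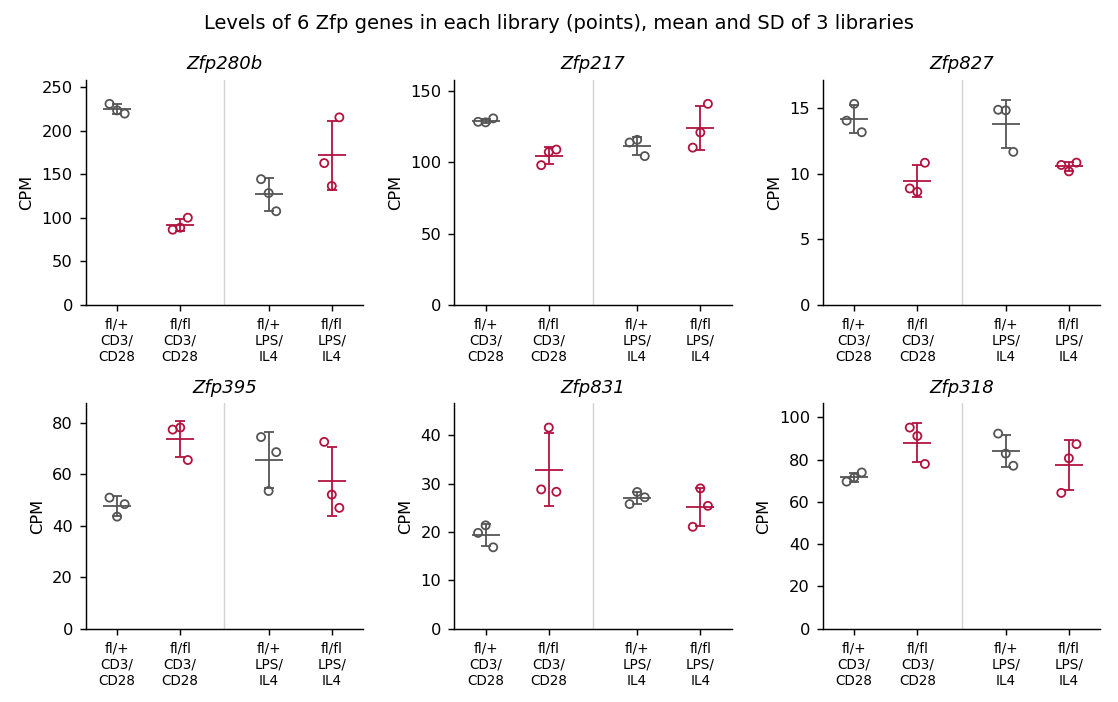
Levels (CPM, y axis from 0) of 6 Zfp genes in each library (points) of CTCFfl/+ and CTCFfl/fl cells, with the mean and SD of 3 libraries, for CD3/CD28 and LPS/IL4 cultures. The groups are apart in CD3/CD28 for all 6 genes, at 219.96 to 231 against 86.5 to 100.3 CPM for Zfp280b, and the genotypes are apart in LPS/IL4 for Zfp827 alone, at 11.7 to 14.9 against 10.2 to 10.9 CPM.

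The RNA-binding and promoter factors with the best known roles in lymphocytes were not called. Zfp36, Zfp36l1 and Zfp36l2 encode proteins that bind AU-rich elements of mRNAs and speed their decay, with CCCH fingers in place of C2H2 fingers. In CD3/CD28, Zfp36 lay at 99.4, 95.5 and 96.9 CPM in CTCFfl/+ and 96.2, 137 and 103 CPM in CTCFfl/fl cells, with overlapping groups (log2 fold change 0.19, 95% confidence interval -0.06 to 0.43). Zfp36l1 lay at 278, 343 and 318 against 309, 375 and 331 CPM (0.11, interval -0.09 to 0.31). Zfp36l2 lay at 200.3, 181 and 191 against 198, 225 and 211 CPM (0.15, interval -0.0017 to 0.30). In all 3 genes CTCFfl/fl replicate 2 was the highest library of CD3/CD28. Over the list of 14 members with roles in RNA binding, RNA decay, translation or the spindle, none was called in CD3/CD28 by limma, edgeR or DESeq2, with 3 at an unadjusted p under 0.05 in limma and a median log2 fold change of -0.01. The list ran from -0.18 for Zfp638 and for Zfp598, a sensor of collided ribosomes, to 0.19 for Zfp36.

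Zfp143 is a promoter factor that has been placed at loop anchors beside CTCF. It lay at 33.3, 29.2 and 36.1 CPM in CTCFfl/+ and 30.1, 36.9 and 35.3 CPM in CTCFfl/fl cells of CD3/CD28, with overlapping groups. The log2 fold change was 0.05 (95% confidence interval -0.19 to 0.29). In LPS/IL4 it was 0.11 (interval -0.14 to 0.36). Of 7 KRAB repressors listed for retroelements or imprinted loci, 4 were among the Zfp genes studied, and none was called by limma in either culture. In CD3/CD28 none reached an unadjusted p under 0.05, and in LPS/IL4 Zfp809 did (log2 fold change 0.35, adjusted p = 0.73). Zfp809, which silences murine leukaemia virus sequences, had a log2 fold change of 0.19 in CD3/CD28, and Zfp445, which guards genomic imprints, one of -0.09. Zfp568 and Zfp932 had -0.26 and -0.12.

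Most of the calls fell on Zfp genes without a KRAB-A box, which also have more reads per gene. In CD3/CD28, 4 of the 115 genes with a KRAB-A box were called (3.48%), 3 higher and 1 lower, against 20 of the 122 without one (16.4%), 8 higher and 12 lower. The median SE of the log2 fold change was 0.15 for the KRAB genes and 0.11 for the others, and for 55 of the 115 the 95% confidence interval lay within 0.5 of 0. Set side by side at like levels, from 10 to 20 CPM 3 of 48 KRAB genes and 2 of 26 others were called, and from 20 to 50 CPM 1 of 19 and 9 of 53. Over all protein-coding genes the called share in those ranges was 15.6% and 17.7%. From 5 to 10 CPM none of 46 KRAB genes, 3 of them at an unadjusted p under 0.05, and 2 of 12 others were called by limma, against 13.6% of all protein-coding genes. At 50 CPM or more lay 2 KRAB genes, of which none was called, and 31 others, of which 7 were. The difference between the classes was given as counts and was not tested. By the number of fingers, the calls were 7 of 44 at 0 to 4 fingers, 9 of 71 at 5 to 9, 5 of 75 at 10 to 14 and 3 of 47 at 15 or more, and the median levels of these sets were 30.0, 21.8, 12.0 and 13.0 CPM.

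The KRAB genes varied together from library to library. Their median deviation from the mean of the culture in CD3/CD28 was 0.07, 0.01 and -0.01 in the CTCFfl/+ libraries and -0.08, 0.15 and -0.08 in the CTCFfl/fl libraries, on the log2 scale. CTCFfl/fl replicate 2 thus stood above the other libraries while replicates 1 and 3 of the same group stood below them. In the CTCFfl/fl libraries the Zfp genes without a KRAB-A box varied less, at -0.04, 0.02 and -0.02. In the CTCFfl/+ libraries their medians were -0.0028, 0.02 and 0.07, a spread near that of the KRAB genes. The median over all genes with a mean of 5 CPM or more was within 0.0091 of 0 in each library. In LPS/IL4 the KRAB median was highest in CTCFfl/+ replicate 1, at 0.11, and lowest in CTCFfl/+ replicate 3, at -0.06. Without CTCFfl/fl replicate 2 of CD3/CD28, the median log2 fold change of the KRAB genes moved from -0.02 to -0.09, and 6 of them were called lower and none higher by limma, while of the genes without a KRAB-A box 4 were called higher and 16 lower. With that library, 64 of the 115 KRAB genes had a negative estimate, and without it 78. The recovered reads of the library numbered 8289252, near the median of the culture, and the part that this library plays in the KRAB values beyond these counts was not tested.

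**Figure D3:**
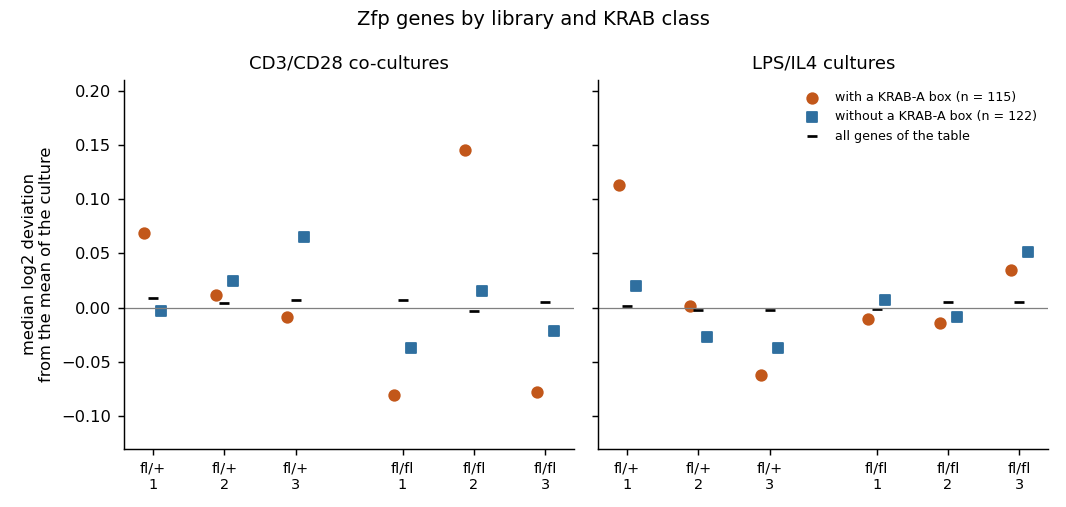
Median log2 deviation from the mean of the culture (y axis) in each library (x axis, genotype and replicate) for Zfp genes with a KRAB-A box (circles, n = 115) and those without one (squares, n = 122). Dashes, labelled as all genes of the table, are all genes with a mean of 5 CPM or more. In CD3/CD28 the KRAB median reaches 0.15 in CTCFfl/fl replicate 2 and -0.08 in replicates 1 and 3 of that genotype.

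Chromosomal clusters of Zfp genes mostly held estimates of both signs. Runs of at least 3 genes with start sites at most 500 kb apart made 17 clusters of 101 genes, 71 of which had a KRAB-A box. In 4 of the clusters, each of 3 genes, all estimates had 1 sign. In CD3/CD28, 5 of the 101 clustered genes were called (4.95%), against 19 of the 136 outside clusters (13.97%) and 21.2% of all genes tested with a mean of 5 CPM or more. The median levels of these sets of Zfp genes were 12.8 and 21.6 CPM. The median log2 fold changes were -0.02 and -0.01. Cluster medians ran from -0.24 to 0.31, and 13 of the 17 clusters held no called gene among the 101. Neighbouring KRAB genes are near copies of each other, and how the authors' counting split reads between them bears on each single value.

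The largest clusters lay on chromosomes 17 and 13 and were made of KRAB genes alone. The cluster from Zfp160 to Zfp758 on chromosome 17 (21008903 to 22377281) held 13 genes, of which 8 had a negative and 5 a positive estimate, from -0.29 for Zfp160 to 0.43 for Zfp52, with a median of -0.04. None of these 13 was called by limma, and the smallest adjusted p was 0.063, for Zfp52. Of 5 other protein-coding genes inside this run, 1 was called, Zfp948, which was higher. Its mean lay below the limit of 5 CPM. The 13 genes from Zfp595 to Zfp65 on chromosome 13 (67312998 to 67729173) ran from -0.31 for Zfp748 to 0.31 for Zfp874b, with a median of -0.06, 10 of them negative and none called. In these clusters too the CTCFfl/fl libraries differed among themselves, with median deviations of -0.20, 0.23 and -0.08 for chromosome 17 and -0.15, 0.16 and -0.09 for chromosome 13.

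Most clusters on chromosome 7 mixed KRAB and other genes. The run from Zfp628 to Zfp580 held 5 genes, none with a KRAB-A box. Its median was 0.27, with 1 negative and 4 positive estimates, and none was called. From Zfp84 to Zfp146 (29768552 to 30169750), 11 genes had a median of -0.02, and Zfp146 at the end of the run was the 1 called gene. From Zfp553 to Zfp646 (127233061 to 127885996), 10 genes had a median of -0.03 while Zfp768 and Zfp688 in it rose by 0.64 and 0.42, and Zfp747 between them had a log2 fold change of -0.43 that was not called (adjusted p = 0.096 from limma). Of 17 other protein-coding genes inside this run, 1 was called, the histone methyltransferase gene Setd1a, which was lower. On chromosome 6, Zfp956 rose by 0.52 while the other 5 genes of its run, from Zfp398 to Zfp746, lay between -0.20 and 0.15, and none was called. On chromosome 8, Zfp866 fell by 0.41 beside Zfp930 at -0.42, which was not called (adjusted p = 0.14), and Zfp868 and Zfp869 at -0.06 and 0.05. The calls of Zfp146, Zfp688, Zfp956 and Zfp866 are among those lost when single libraries were left out.

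**Figure D4:**
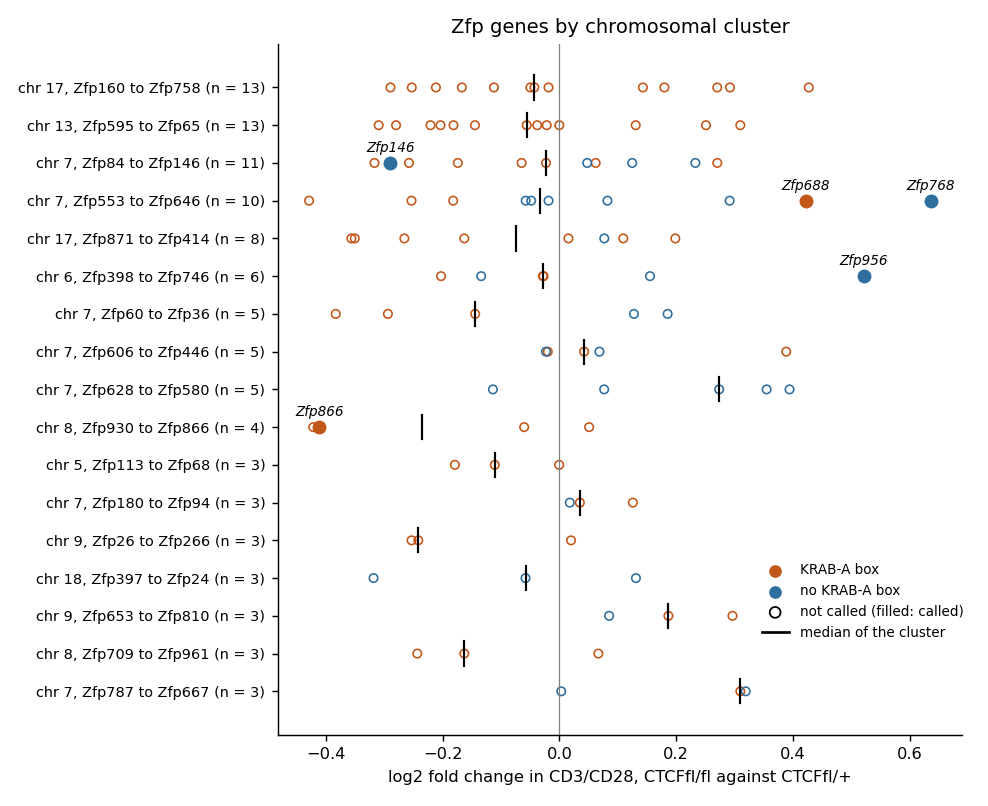
Log2 fold change in CD3/CD28 (x axis, CTCFfl/fl against CTCFfl/+) of the Zfp genes in each of 17 chromosomal clusters (rows), with KRAB genes in orange, other genes in blue, called genes filled and the cluster median as a bar. In 13 of the clusters the estimates have both signs, the clusters of 13 KRAB genes running from -0.29 to 0.43 and from -0.31 to 0.31, and 5 genes are called in all.

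In LPS/IL4 cultures no Zfp gene was called, at an adjusted p under 0.05 from limma. The share of all 11962 genes tested that was called there was 0.0334%, and edgeR and DESeq2 on recovered reads called no Zfp gene either. At an unadjusted p under 0.05 lay 12 of the 237 genes, against 6.65% of all genes tested. The estimates ran from -0.47 to 0.44, with a median of 0.01, and for 168 of the 237 genes the 95% confidence interval lay within 0.5 of 0. The lowest adjusted p of a Zfp gene was 0.40. Of the 13 genes called lower with CD3/CD28, 6 had a negative and 7 a positive estimate in LPS/IL4, and of the 11 that rose, 3 had a positive and 8 a negative one.

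For 9 of the 237 Zfp genes, all of them called in CD3/CD28, the response to CTCF loss was not the same in both cultures, as tested by the interaction term in limma at an adjusted p under 0.05. The interaction was positive for 5 and negative for 4 of them, 3.80% of the Zfp genes. It was called for 7.57% of all 11847 genes tested, 3.88% positive and 3.69% negative. Beside Zfp280b, the differences with the smallest adjusted p were those of Zfp956 (0.91, SE 0.19, adjusted p = 0.014), Zfp831 (0.85, SE 0.21, adjusted p = 0.027), Zfp518b (-0.95, SE 0.24, adjusted p = 0.027) and Zfp395 (0.83, SE 0.21, adjusted p = 0.028). Zfp956 in LPS/IL4 stood at 36.5, 29.1 and 36.6 CPM in CTCFfl/+ and 25.8, 27.2 and 24.1 CPM in CTCFfl/fl cells, the reverse order of its groups in CD3/CD28 (log2 fold change -0.39, adjusted p = 0.45). Zfp518b in LPS/IL4 stood at 6.42, 4.81 and 4.46 against 7.46, 6.05 and 8.18 CPM, with overlapping groups (0.44, adjusted p = 0.73). Zfp831 in LPS/IL4 stood at 25.8, 28.3 and 27.2 against 21.1, 29.0 and 25.4 CPM (-0.11). Zfp395 stood there at 74.5, 53.5 and 68.7 against 72.6, 52.2 and 47.0 CPM (-0.21). Both had overlapping groups.

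Of these 9 differences, those of Zfp280b and Zfp956 stayed past the threshold when any 1 of the 12 libraries was left out. Zfp831 lost the call of the interaction in 6 of the 12 fits (adjusted p = 0.051 to 0.074), Zfp518b in 6 (0.055 to 0.069) and Zfp395 in 8 (0.051 to 0.071). The remaining 4, Zfp358, Zfp386, Zfp217 and Zfp574, lost it in 6 to 9 fits, with adjusted p up to 0.11. Zfp827 was lower in CTCFfl/fl libraries of both cultures without overlap, at 14.9, 14.9 and 11.7 against 10.7, 10.2 and 10.9 CPM in LPS/IL4, where its log2 fold change was -0.36 (95% confidence interval -0.68 to -0.04, adjusted p = 0.67).

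**Figure D5:**
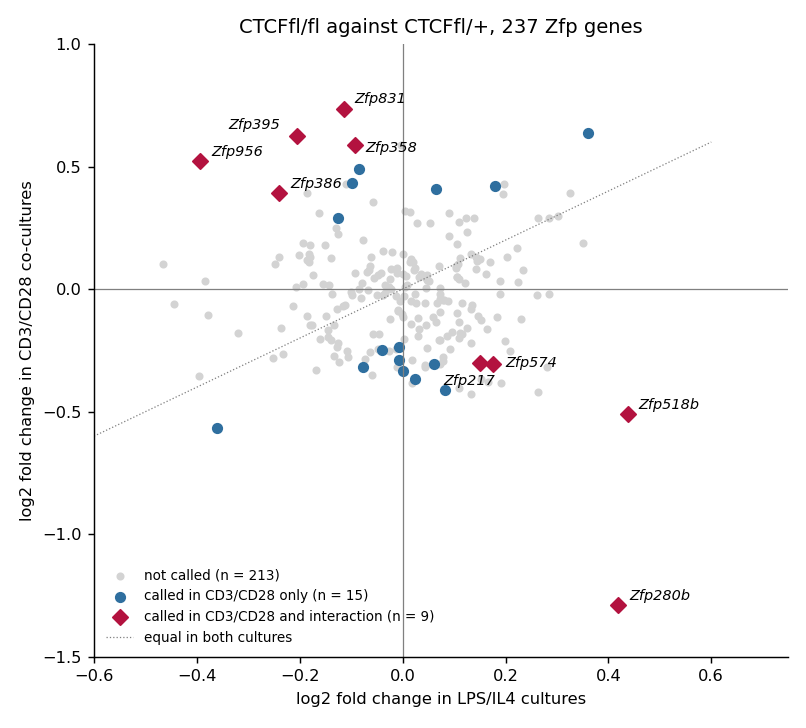
Log2 fold change (CTCFfl/fl against CTCFfl/+) of 237 Zfp genes in LPS/IL4 (x axis) and CD3/CD28 (y axis), with the 9 genes called for the interaction as red diamonds and the 15 others called in CD3/CD28 in blue. The 9 genes have opposite signs in the cultures, and Zfp280b lies at 0.42 and -1.29. A choice by the difference between cultures favours opposite signs, and none of the 9 is called in LPS/IL4.

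The corepressor machinery that KRAB proteins use was followed with a list of its genes. Of 25 listed genes, 7 were lower and none was higher in CTCFfl/fl cells of CD3/CD28 by limma, with a median log2 fold change of -0.13. These are 28.0% of the list, whose median level is 109.6 CPM and which was chosen with results known. Among all genes tested, of any level, 8.76% were lower. Of the 25 estimates, 21 were negative and 4 positive. The highest was that of Atf7ip (0.25, adjusted p = 0.061 from limma), which was not called. Of 4149 protein-coding genes at 50 CPM or more, 645 were lower and 530 higher, 28.3% called either way. None of the list was called in LPS/IL4 by limma, with 1 at an unadjusted p under 0.05. Trim28 itself, the direct partner of KRAB, had a log2 fold change of -0.14 and was not called (adjusted p = 0.20). Dnmt3a, a DNA methyltransferase, lay at 177, 197 and 203 CPM in CTCFfl/+ and 138, 148 and 143 CPM in CTCFfl/fl cells (-0.42, SE 0.07, adjusted p = 0.0031). Cbx5, which encodes the heterochromatin protein HP1 alpha, lay at 335, 281 and 316 against 237, 256 and 236 CPM (-0.35, SE 0.07, adjusted p = 0.0094). Chd3, a nucleosome remodeller, lay at 134, 148 and 136 against 100.2, 110.2 and 117 CPM (-0.35, SE 0.08, adjusted p = 0.011). Smarcad1, another remodeller, lay at 40.5, 37.7 and 38.8 against 29.4, 32.0 and 27.7 CPM (-0.39, SE 0.09, adjusted p = 0.013). In these 4 genes the groups did not overlap. Smarcad1 lost the call without CTCFfl/+ replicate 1 or 3 (adjusted p = 0.058 and 0.056).

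Related zinc finger families were counted in the same way. In CD3/CD28, 5 of 36 Zbtb genes, which join zinc fingers to a BTB domain, were called (13.9%), 2 higher and 3 lower, against 21.2% of all genes tested at that mean level. Of 14 Zscan and Zkscan genes, which join them to a SCAN domain, none was called by limma and 5 had an unadjusted p under 0.05, and of 9 Klf genes 1 was higher and 1 lower. The median log2 fold changes of these families were -0.14, 0.03 and -0.05. The difference from the Zfp genes was not tested.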

How the data were processed

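Per the deposited records and the study's methods, polyA RNA-seq libraries made without strand marking were trimmed with cutadapt and quantified with RSEM 1.17 on GRCm38 with Ensembl annotation, and the authors deposited edgeR-normalized CPM. The processed table held 12699 genes, of which 12598 were named from GENCODE M21 and 101 were not. The values were whole multiples of 1 step in each library: all values came out whole within 0.01 of a step. These whole numbers are called recovered reads here. Culture means had been brought close together, so levels were not compared between cultures. The recovered reads, their sums and the edgeR and DESeq2 fits on them rest on values after that step. They may differ from the reads first counted.

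In each culture, a gene entered the test when 3 or more of 6 libraries held 1 CPM or more. Tests were made with limma 3.58.1 in R 4.3.3 on log2(CPM + 0.5) with an intensity trend, CTCFfl/fl against CTCFfl/+ (3 libraries each), and p-values were adjusted by Benjamini-Hochberg over all genes tested, with a threshold of 0.05. The difference between cultures was the interaction over 12 libraries. Other pseudocounts (0.1 and 1), filters, scaling, variance models and left-out libraries were alternatives, and edgeR 4.0.16 and DESeq2 1.42.0 on recovered reads were added after seeing the data. Libraries are pools of mice, and p-values measure the spread between pools.

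KRAB-A boxes (at least 7 of 9 consensus positions) and C2H2 fingers were found in translated GENCODE transcripts, in place of a protein table, which was not used here. Promoter windows came from RefSeq on GRCm38.p6. The genes, lists and tests were chosen with earlier results of these data known. Named genes were the 10 largest rises and 10 largest falls called in CD3/CD28, the 5 smallest adjusted p of the interaction, Zfp143, Zfp318 and the Zfp36 family, genes of the role lists and of described clusters, Ctcf and the 4 corepressor genes with the smallest adjusted p. 1 of the B-cell markers is not reported here.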

Additional observations from a re-analysis of the deposited data

Results flagged for a closer look

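For 9 Zfp genes, the log2 effect of CTCF loss in CD3/CD28 minus that in LPS/IL4 passed the threshold of the interaction test in limma (12 libraries, adjusted p under 0.05), with estimates of opposite sign in the cultures. Choosing genes by this difference favours opposite signs, and none of the 9 was called in LPS/IL4. The difference was -1.71 for Zfp280b (adjusted p = 0.00049), -0.95 for Zfp518b, -0.48 for Zfp574 and -0.45 for Zfp217. It was 0.91 for Zfp956 (adjusted p = 0.014), 0.85 for Zfp831, 0.83 for Zfp395, 0.68 for Zfp358 and 0.63 for Zfp386. Groups of 3 libraries were too small for a search for single outlying libraries. The cultures were separate batches and differed in recovered reads, and culture and batch cannot be told apart.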

How the results depend on the processing

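In CD3/CD28, 11 Zfp genes were called higher and 13 lower. DESeq2 called 7 and 8, limma without the intensity trend 3 and 5, and edgeR 11 and 14. Without the trend the counts without a KRAB-A box were 3 and 4, corepressor genes lower 2, chromatin and DNA-binding members 0 and 4, KRAB genes higher 0 and the interaction 3 and 2, and Ctcf in LPS/IL4 stayed at -1.01 with an adjusted p of 0.128. DESeq2 also gave 1 KRAB gene higher, 7 genes without a KRAB-A box lower and 1 chromatin member higher. In 1 fit of all 12 libraries the KRAB genes lower were 0, corepressor genes lower 4 and chromatin members higher 0. With no filter, KRAB genes higher and chromatin members higher were 1 each. With a filter of mean 5 CPM, with median-of-ratios scaling and with a pseudocount of 0.1, KRAB genes lower were 2.

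Whether replicate numbers pair the libraries was not settled by these few values. Deviations of same-numbered libraries had correlations of -0.13 to 0.05 in CD3/CD28 and -0.12 to 0.39 in LPS/IL4. Those of differently numbered libraries had -0.11 to 0.11 and -0.35 to 0.29. With the replicate block, 8 Zfp genes were higher and 6 lower, KRAB genes higher were 1, genes without a KRAB-A box lower 5, chromatin members 1 higher and 4 lower, and the interaction 3 higher and 1 lower.

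When each library was left out in turn, the Zfp genes called ranged from 4 to 12 higher and 2 to 22 lower, KRAB genes from 0 to 4 and 0 to 6, and the others from 4 to 8 and 2 to 16. Corepressor genes ranged from 0 to 1 higher and 3 to 7 lower, chromatin members from 0 to 2 and 2 to 6, and the interaction from 1 to 5 and 1 to 6. No named gene that was called changed sign under any alternative run. The balance of calls did change: without CTCFfl/+ replicate 1, 2 or 3 or CTCFfl/fl replicate 3, and with the block, more Zfp genes were called higher than lower. Medians near 0 changed sign: that of the KRAB genes in CD3/CD28 was 0.0022 without CTCFfl/fl replicate 1, and that of all 237 genes in LPS/IL4 ran from -0.021 to 0.035. Recovered reads in CD3/CD28 were fewer than in LPS/IL4, and a Zfp gene that was not called is not shown to be unchanged.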
